A study of Limonium bicolor with 5 samples.

Results

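The leaf with stomata (stage C) was compared with an earlier leaf in which salt glands had differentiated (stage B) in Limonium bicolor, a plant that secretes salt through glands in its leaf surface. The 2 libraries compared are among 5 of the series, and all 18327 genes of the deposited table entered the comparison. Both came from tissue culture, and the labels give no strain, treatment or mutation: stage C was the first true leaf once stomata had differentiated, pooled from about 2000 leaves, and stage B the first true leaf once salt glands had differentiated, pooled from about 4000 leaves. Stages A (undifferentiated), D (epidermis differentiated) and E (mature) are given as context. Poly(A) RNA of whole leaves was sequenced, so that epidermis, mesophyll and vessels are mixed, and fewer cells of a type and less RNA per cell cannot be told apart. The labels speak of 2 lanes per stage as biological replicates, but the table holds 1 column per stage, so the differences below have no replicate check and no p-values.

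In Arabidopsis, from which the names and roles below are taken, a stoma forms when a cell of the young epidermis enters the stomatal lineage, divides asymmetrically and ends as a pair of guard cells. Receptors, peptides and a MAP kinase cascade space the pores, and the guard cells later open and close them through ion channels, proton pumps and blue-light receptors. Meanwhile the mesophyll stops dividing, expands and fills its chloroplasts with light-harvesting complexes and the enzymes of carbon fixation. Salt glands are also epidermal, and the trichome regulators of Arabidopsis are followed here because they set cell fate in the same cell layer. No gene that defines a salt gland was among the lists, so the label of stage B was not checked against one.

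Values are RPM, reads of a gene scaled to the size of the library, which are not divided by gene length, so that a gene can be compared between stages but not with another gene. Stage C rests on 14286009 reads and stage B on 16556653, and 3 reads are 0.210 RPM in stage C and 0.181 RPM in stage B. A gene was called higher or lower in stage C where log2(RPM + 1) differed by 1 or more and the higher stage reached 5 RPM. Folds are ratios of RPM, with the exact 95% interval (Clopper-Pearson) of the reads in brackets, which covers counting error only.

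The reads of stage C were shifted toward loci with low Arabidopsis numbers, and every result below has to be read beside that shift. The lowest-numbered locus of families of 2 to 20 genes held 44.9% of the family reads in stage C, against 27.9% in stage B, and the highest-numbered locus held 18.2% in stage C, against 29.2% in stage B. In stages A, D and E the lowest-numbered locus held between 27.4% and 29.95%. The median log2 difference of stage C over stage B was 0.23 over loci of chromosome 1, -0.01 over chromosome 2, -0.31 over chromosome 3, -0.48 over chromosome 4 and -0.68 over chromosome 5. Genes whose description no other gene shares, closing numbers aside, showed the same order, at -0.01 on chromosome 1 and -0.68 on chromosome 5. Some of these still have a relative under another description, as PsbO-2 below has in PsbO-1. What produced the shift was not tested. For that reason single members of gene families are uncertain, and the groups below are also given as sums over related genes. Such sums and genes alone in their family are not free of the shift by chromosome, which the latter showed as well. The value without the loci of chromosome 1 is printed wherever leaving them out carried a list or protein group whose sum is given below across 2-fold.

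**Figure D1:**
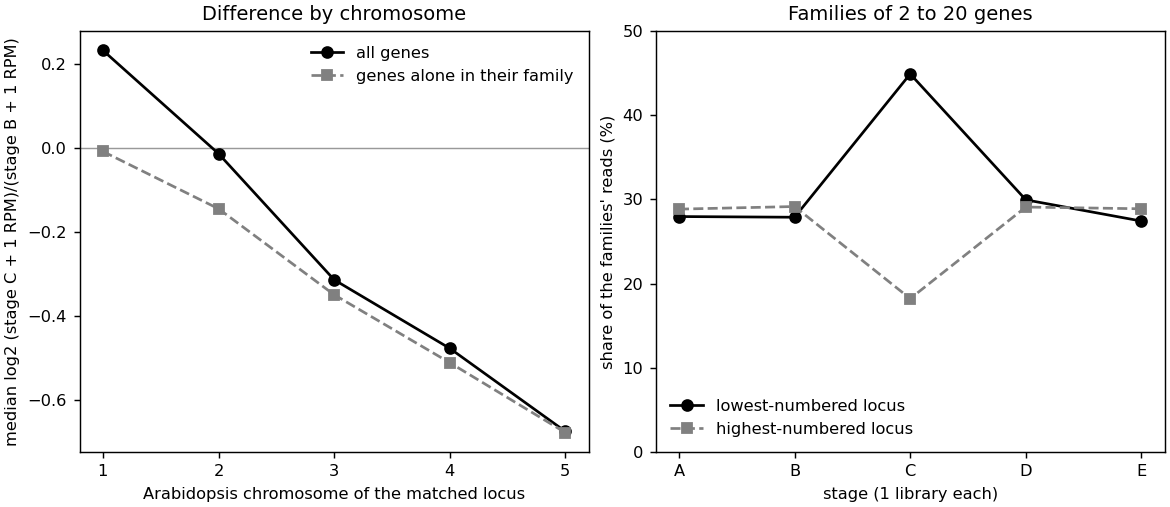
Left, median log2 difference of stage C over stage B for loci matched to each Arabidopsis chromosome, for all genes and for genes alone in their family (description shared with no other gene). Right, share of the reads of families of 2 to 20 genes held by the lowest-numbered and the highest-numbered locus in each stage: stage C stands apart at 44.9% and 18.2%.

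Of the 18327 genes, 2786 (15.2%) were higher and 4178 (22.8%) lower in stage C, with a median log2 difference of -0.23 over all genes. Counts of called list members below are to be read beside these shares. Median-of-ratios scaling, which moves all log2 differences up by 0.29, gave 3594 higher and 3177 lower. On chromosome 1, 26.2% of genes were higher and 12.2% lower, whereas on chromosome 5 7.10% were higher and 34.9% lower. Summed over genes with the same description, 615 of 6296 families (9.77%) were higher and 1215 (19.3%) lower. Of the 2380 higher genes that have a family of 2 or more, 443 (18.6%) stood in a family whose sum was also higher and 67 in a family whose sum was lower. Of the 3329 lower genes in such families, 893 (26.8%) stood in a family whose sum was lower and 24 in a family whose sum was higher.

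**Figure D2:**
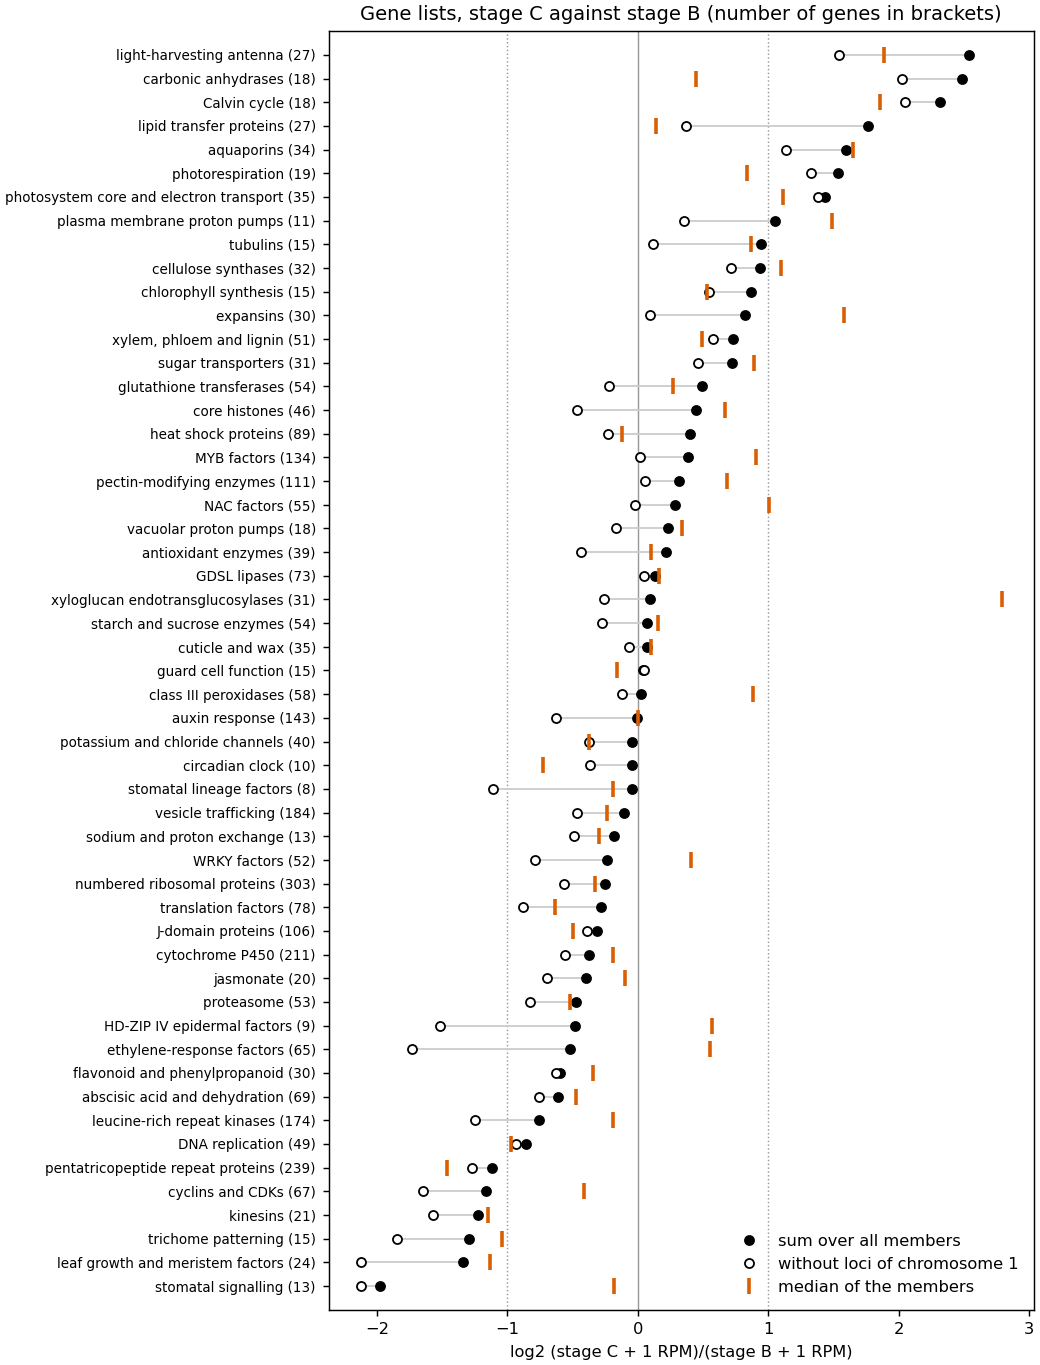
Log2 difference of stage C over stage B for 53 gene lists, sorted by the sum over all members (filled circles), with the sum without loci of chromosome 1 (open circles) and the median of the members (orange bars). Dotted lines mark 2-fold; 8 sums lie at 2-fold or more on the higher side and 6 on the lower side.

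The factors that carry a cell through the stomatal lineage were not higher as a group in the leaf with stomata. Their 8 measured members summed to 191 RPM in stage C, against 197 RPM in stage B, with 0 higher and 3 lower (1 and 2 after scaling) and a median log2 difference of -0.19 beside -0.23 over all genes. That level sum rested on 3 loci of chromosome 1: without them the other 5 summed to 36.7 RPM in stage C, against 80.5 RPM in stage B, a log2 difference of -1.11. SPCH, the basic helix-loop-helix factor that starts the lineage in Arabidopsis, stood at 5.46 RPM in stage C, against 26.7 RPM in stage B, 4.89-fold (3.84 to 6.30) lower. It is a locus of chromosome 5, where lower calls were most frequent. FAMA, which sets the last division of the guard mother cell, stood at 4.41 RPM in stage C, against 10.4 RPM in stage B, 2.36-fold (1.76 to 3.20) lower, a call lost after scaling. These are the first and the last of the 3 successive switch factors of the lineage. MUTE, the switch between them, stood at 3.15 RPM in stage C, against 1.03 RPM in stage B, under the minimum of 5 RPM in both stages.

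The partners of these switches were close to level. SCRM and SCRM2, the shared partners of the 3 switches, summed to 58.9 RPM in stage C, against 68.6 RPM in stage B, and neither was called. HDG2, a homeodomain factor that promotes the stomatal lineage, stood at 93.2 RPM in stage C, against 57.0 RPM in stage B and was not called. FLP and MYB88, related MYB factors that stop guard mother cells from dividing again, moved apart. FLP stood at 19.7 and 10.9 RPM in stages C and B and MYB88 at 6.02 and 22.7 RPM, a call for MYB88 only (for both, in opposite directions, after scaling). Their sum was 25.7 RPM in stage C, against 33.6 RPM in stage B, so that the call of MYB88 was not carried by the pair. FLP is a locus of chromosome 1, and without it the log2 difference is that of MYB88, -1.76. Over the 5 stages the lineage factors summed to 232 RPM at stage A, 197 at B, 191 at C, 81.4 at D and 102 at E.

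The receptors and kinases that space stomata were lower as a group, and the ERECTA receptors carried most of it. The 13 signalling genes summed to 485 RPM in stage C, against 1911 RPM in stage B, 3.94-fold (3.83 to 4.04) lower, with 1 higher and 5 lower, while their median was -0.18. Those calls are shares of 7.69% and 38.5%, beside 15.2% and 22.8% of all genes. ERECTA, a receptor kinase of organ growth and stomatal spacing, stood at 204 RPM in stage C, against 1176 RPM in stage B, 5.76-fold (5.54 to 5.99) lower. ERL1 stood at 51.2 RPM in stage C, against 325 RPM in stage B, 6.35-fold (5.88 to 6.87) lower. ERL2 stood at 81.8 RPM in stage C, against 196 RPM in stage B, 2.39-fold (2.24 to 2.56) lower, a call lost after scaling. ERECTA is a locus of chromosome 2, where the median over all genes was -0.01, whereas ERL1 and ERL2 are loci of chromosome 5, where the median was -0.68 and lower calls were most frequent. The family summed to 3268 RPM at stage A, 1697 at B, 337 at C, 125 at D and 211 at E, with the steepest step between stages B and C at 5.03-fold (4.88 to 5.19).

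Below the receptors, YDA, the MAP kinase kinase kinase of the cascade, stood at 13.9 RPM in stage C, against 42.7 RPM in stage B, 3.07-fold (2.62 to 3.61) lower. MPK6, the last kinase of the cascade, stood at 41.6 RPM in stage C, against 94.2 RPM in stage B, 2.26-fold (2.06 to 2.49) lower, which scaling also ended. Its near-redundant partner MPK3 stood at 34.9 and 41.8 RPM in stages C and B and was not called. MKK4 and MKK5, the kinases between them, stood at no more than 6.51 RPM in stage C and 5.01 RPM in stage B and were not called either. TMM, the receptor that works with the ERECTA family, was level at 14.8 and 14.9 RPM. SDD1, a protease that limits stomatal number, was the single signalling gene called higher, at 26.2 RPM in stage C, against 7.73 RPM in stage B, 3.39-fold (2.76 to 4.17) higher. It is a locus of chromosome 1, where higher calls were most frequent. The secreted peptides EPF1, EPF2 and EPFL9 lay under 5 RPM in both stages. Without ERECTA, the member with most reads, the signalling sum was 281 and 734 RPM in stages C and B.

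**Figure D3:**
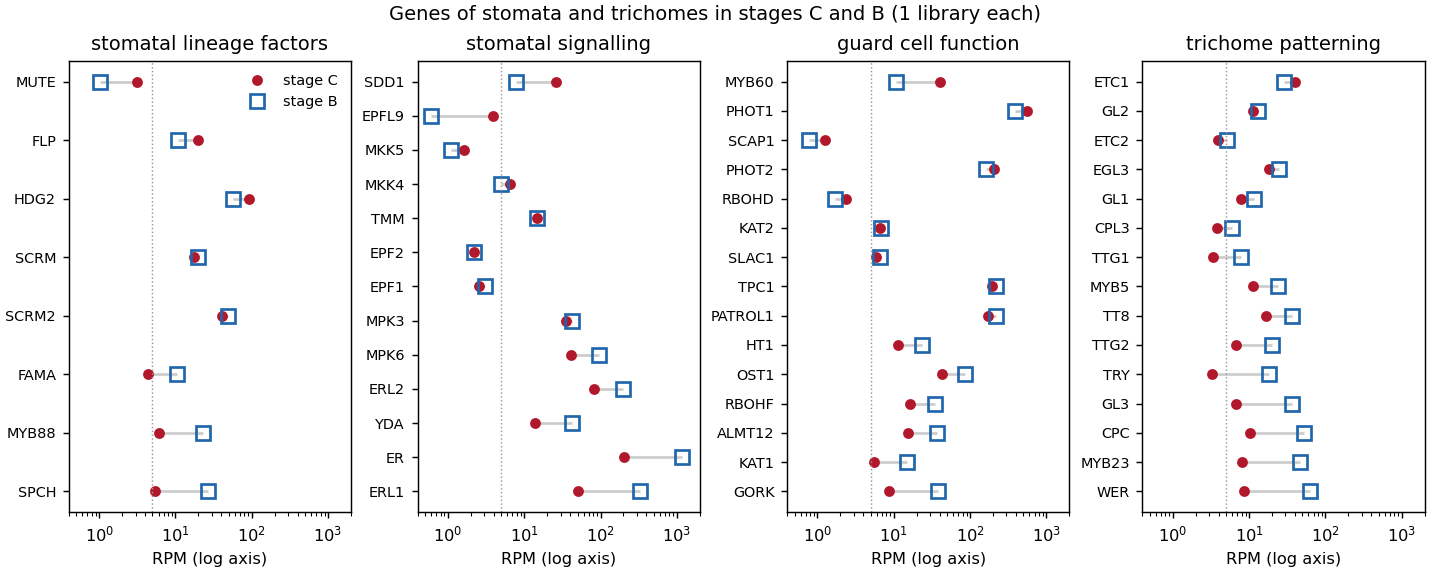
RPM in stage C (red circles) and stage B (blue squares) of the measured stomatal lineage, stomatal signalling, guard cell and trichome patterning genes, on a log axis and sorted by their log2 difference; the dotted line is 5 RPM. Red lies left of blue by the largest ratios for WER, ERL1, MYB23 and ER, and among genes that reach 5 RPM it lies right of blue by more than 2-fold for SDD1 and MYB60.

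Genes of guard cell function were level as a sum and mixed as members. The 15 genes summed to 1281 RPM in stage C, against 1244 RPM in stage B, with 1 higher and 4 lower (1 and 2 after scaling), shares of 6.67% and 26.7% beside 15.2% and 22.8% of all genes. MYB60, a MYB factor active in Arabidopsis guard cells, was the one called higher, at 39.8 RPM in stage C, against 10.6 RPM in stage B, 3.77-fold (3.18 to 4.49) higher. MYB60 is a locus of chromosome 1, where higher calls were most frequent. Of the 4 lower genes 2, GORK and KAT1, are loci of chromosome 5, where lower calls were most frequent. GORK, the potassium channel through which guard cells lose potassium, stood at 8.75 RPM in stage C, against 37.7 RPM in stage B, 4.31-fold (3.56 to 5.27) lower. ALMT12, an anion channel of stomatal closure, stood at 15.3 RPM in stage C, against 36.4 RPM in stage B, 2.38-fold (2.03 to 2.79) lower. RBOHF, an oxidase that makes reactive oxygen in guard cell signalling, stood at 16.1 RPM in stage C, against 35.0 RPM in stage B, 2.17-fold (1.86 to 2.54) lower. The calls of ALMT12 and RBOHF were lost after scaling.

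The potassium uptake channel KAT1 stood at 5.46 RPM in stage C, against 15.04 RPM in stage B, a call that the related channel KAT2, at 6.65 and 6.70 RPM, did not share. SLAC1, the main anion channel of stomatal closure, was level at 5.88 and 6.58 RPM. OST1, the kinase that activates SLAC1, stood at 43.0 RPM in stage C, against 87.1 RPM in stage B and fell just short of the rule. The blue-light receptors PHOT1 and PHOT2, which open stomata but also act across the leaf, summed to 759 RPM in stage C, against 546 RPM in stage B and were not called. The level sum of the list rested in part on them. Without PHOT1, its member with most reads, the list summed to 727 RPM in stage C, against 862 RPM in stage B, a log2 difference of -0.24. The 6 markers of the stomatal lineage summed to 86.7 RPM in stage C, against 122 RPM in stage B, with 0 higher and 2 lower (SPCH and FAMA). TMM was level, and MUTE was highest in stage C of the 5 stages, at 3.15 RPM. How these markers bear on the label of stage C was not tested. The 7 markers of guard cells summed to 121 RPM in stage C, against 187 RPM in stage B, with 1 higher and 2 lower. None of these 13 markers was at 0 in either stage. The guard cell markers summed to 199 RPM in stage D and 469.6 RPM in stage E.

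The regulators of trichome and root hair fate were lower in the leaf with stomata. Their 15 measured members summed to 159.9 RPM in stage C, against 394 RPM in stage B, 2.46-fold (2.35 to 2.58) lower, with 0 higher and 9 lower (6 lower after scaling) and a median of -1.04. Those calls are shares of 0% and 60%, beside 15.2% and 22.8% of all genes. All 5 members on chromosome 5, where 34.9% of all genes were lower, are among the 9. The related MYB activators GL1, WER and MYB23 summed to 24.4 RPM in stage C, against 122 RPM in stage B, 4.99-fold (4.45 to 5.61) lower. WER, the most strongly read of them in stage B, stood at 8.54 RPM in stage C, against 63.4 RPM in stage B, 7.43-fold (6.15 to 9.03) lower. MYB23 stood at 7.98 RPM in stage C, against 46.6 RPM in stage B, 5.84-fold (4.79 to 7.18) lower. GL1, the activator of leaf trichomes in Arabidopsis, stood at 7.84 and 11.5 RPM in stages C and B and was not called. WER and MYB23 are loci of chromosome 5 and GL1 is one of chromosome 3, so that without chromosome 5 the group's log2 difference is that of GL1, -0.50.

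Their helix-loop-helix partners GL3, EGL3 and TT8 summed to 41.6 RPM in stage C, against 97.2 RPM in stage B, 2.34-fold (2.13 to 2.57) lower. This sum was short of 2-fold after scaling, and also without chromosome 5, at a log2 difference of -0.79. GL3 and TT8 were called, TT8 not after scaling, whereas EGL3, a locus of chromosome 1, stood at 18.2 and 25.0 RPM and was not. The small MYB repressors that move between cells divided by locus. CPC stood at 10.1 RPM in stage C, against 52.2 RPM in stage B, and TRY at 3.29 RPM in stage C, against 18.1 RPM in stage B, both called lower. ETC1, a locus of chromosome 1, stood at 40.2 RPM in stage C, against 28.4 RPM in stage B and was not called. The summed repressors stood at 61.4 RPM in stage C, against 109.9 RPM in stage B, short of 2-fold, and past it without ETC1, at a log2 difference of -1.89. TTG1, the WD-repeat protein that holds these complexes together, stood at 3.36 RPM in stage C, against 7.85 RPM in stage B, MYB5 at 11.3 and 24.2 RPM and TTG2 at 6.72 and 20.1 RPM, all 3 called lower, TTG1 and MYB5 not after scaling. GL2, the homeodomain factor that these complexes switch on, was level at 11.3 and 13.3 RPM. Without loci of chromosome 5 the list's log2 difference was -0.77, short of 2-fold, and without chromosome 1 it was -1.85.

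Factors that define the outermost cell layer followed the same division. ATML1 and PDF2, a related pair of HD-ZIP IV factors that give the shoot surface its epidermal identity, summed to 25.1 RPM in stage C, against 93.0 RPM in stage B, 3.71-fold (3.30 to 4.17) lower. HDG5 stood at 7.63 RPM in stage C, against 41.3 RPM in stage B and ANL2, which acts in surface pigmentation, at 4.41 RPM in stage C, against 16.1 RPM in stage B, both called lower. HDG11, a locus of chromosome 1, was called higher at 5.74 RPM in stage C, against 2.30 RPM in stage B. The 9 measured members of the class summed to 157 RPM in stage C, against 220.0 RPM in stage B, with 1 higher and 4 lower. Those calls are shares of 11.1% and 44.4%, beside 15.2% and 22.8% of all genes. Measures of the class pointed opposite ways: the median of its members was 0.57, whereas without chromosome 1 the remaining 6 summed to 55.3 RPM in stage C, against 159.7 RPM in stage B, a log2 difference of -1.51.

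The light-harvesting antenna was higher in stage C, and its sum over all members differed more than that of any other list. Its 27 genes summed to 48415 RPM in stage C, against 8352 RPM in stage B, 5.80-fold (5.76 to 5.83) higher, with 20 higher and 3 lower and a median of 1.88. Without loci of chromosome 1 the sums were 17054 and 5863 RPM in stages C and B, a log2 difference of 1.54, below the 2.05 of the Calvin cycle and the 2.02 of the carbonic anhydrases under the same setting. LHCB1, the most abundant antenna protein of photosystem II, accounted for most of it: its 5 genes summed to 35722 RPM in stage C, against 2437 RPM in stage B, 14.7-fold (14.5 to 14.8) higher. All 5 were called higher, and the LHCB1 genes outside chromosome 1 alone summed to 8689 and 1542 RPM. The log2 difference of LHCB1 was 3.87 with and 2.49 without chromosome 1.

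The other antenna proteins were not all higher. LHCB2, which forms trimers with LHCB1, summed to 5604 RPM in stage C, against 1154 RPM in stage B, 4.86-fold (4.78 to 4.93) higher. The monomeric linkers LHCB4, LHCB5 and LHCB6, which join the trimers to the core, stood 5.24-fold, 7.004-fold and 4.48-fold higher, at 200.4, 374 and 587 RPM in stage C. LHCB6 is a single locus of chromosome 1. LHCB3, the third trimer protein, is a locus of chromosome 5 and stood at 1446 RPM in stage C, against 2133 RPM in stage B, not called. The photosystem I antenna showed less: LHCA1 stood at 54.4 RPM in stage C, against 24.6 RPM in stage B (2.21-fold higher) and LHCA2 at 76.4 RPM in stage C, against 263 RPM in stage B (3.45-fold lower). LHCA3 and LHCA4 were not called (LHCA3 higher after scaling). Across the series the antenna summed to 3281 RPM at stage A, 8352 at B, 48415 at C, 40723 at D and 4442 at E over all members. Without chromosome 1 it stood at 17054 RPM at C and 27552 RPM at D, so that which of these stages was the higher depended on those loci.

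Proteins of the photosystem cores and of electron transport were also higher, with or without chromosome 1. Their 35 genes summed to 24261 RPM in stage C, against 8962 RPM in stage B, 2.71-fold (2.69 to 2.72) higher, with 20 higher and 1 lower. The log2 difference was 1.44 with and 1.38 without chromosome 1. PsbO, PsbP and PsbQ, the proteins that shield the water-splitting centre, summed to 1756 and 432 RPM, 2731 and 565 RPM and 302 and 73.3 RPM in stages C and B, 4.06-fold, 4.83-fold and 4.12-fold higher. Each of the 3 sums rested on 1 locus. PsbP outside chromosome 1 stood at 248 and 218 RPM, and PsbQ without the locus with most reads at 35.5 and 53.0 RPM, both short of 2-fold. Plastocyanin, the copper carrier between the photosystems, summed to 1185 RPM in stage C, against 261 RPM in stage B, 4.54-fold (4.39 to 4.70) higher, with both genes on chromosome 1. Ferredoxin-NADP reductase, which makes the NADPH used in carbon fixation, summed to 1018 RPM in stage C, against 156 RPM in stage B, 6.51-fold (6.24 to 6.79) higher, with a log2 difference of 1.01 for its gene outside chromosome 1.

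The PsbO pair divided by locus: PsbO-2 on chromosome 3 stood at 1563 and 42.8 RPM in stages C and B, and PsbO-1 on chromosome 5 at 192 and 389 RPM, a lower call that scaling ended. The single-copy subunits PsaF on chromosome 1 and PsaL on chromosome 4, both of photosystem I, stood at 7503 and 3465 RPM and 2912 and 851 RPM, 2.17-fold and 3.42-fold higher. The list was highest in stage D, at 51755 RPM.

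Carbon fixation rose with the light reactions. Of 18 Calvin cycle genes 16 were higher and 0 lower, with sums of 28366 RPM in stage C, against 5697 RPM in stage B, 4.98-fold (4.94 to 5.01) higher. Without chromosome 1 the sums were 14055 and 3398 RPM in stages C and B. Rubisco activase, which frees Rubisco of bound inhibitors, stood at 9581 RPM in stage C, against 1185 RPM in stage B, 8.08-fold (7.96 to 8.21) higher. The small subunit of Rubisco, coded in the nucleus by 4 measured genes, summed to 1518 RPM in stage C, against 241 RPM in stage B, 6.30-fold (6.09 to 6.52) higher. All 4 were called, the 3 on chromosome 5 included. Phosphoribulokinase and sedoheptulose-bisphosphatase, which rebuild the acceptor of CO2, stood 3.897-fold and 5.67-fold higher, at 2627 and 547 RPM in stage C. The chloroplast glyceraldehyde-3-phosphate dehydrogenase subunits GAPA and GAPB summed to 9749.8 and 2295 RPM and 597 and 83.5 RPM in stages C and B, 4.25-fold and 7.15-fold higher. GAPA outside chromosome 1 stood at 1817 and 1314 RPM, short of 2-fold, and the single genes of GAPB and phosphoribulokinase lie on chromosome 1. Activase stood at 326 RPM at stage A, 25701 at D and 7656 at E, highest in stage D.

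Beta carbonic anhydrase, which interconverts CO2 and bicarbonate and acts both in mesophyll and in the CO2 response of guard cells, showed the largest fold of any protein group followed here. Its 6 genes summed to 2500.1 RPM in stage C, against 153 RPM in stage B, 16.4-fold (15.7 to 17.1) higher, with 5 higher and 1 lower (5 and 0 after scaling), and without chromosome 1 the log2 difference was 3.12. CA1 on chromosome 3 stood at 832 RPM in stage C, against 44.3 RPM in stage B. CA4 on chromosome 1 stood at 773 RPM in stage C, against 16.2 RPM in stage B. CA2 on chromosome 5 stood at 155 RPM in stage C, against 38.1 RPM in stage B. In Arabidopsis CA1 and CA4 are the pair that guard cells need to respond to CO2. Over the stages the group summed to 38.1 RPM at stage A, 153 at B, 2500.1 at C, 8547 at D and 1284 at E.

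Photorespiration, the recycling of the product of Rubisco's reaction with oxygen, had 9 of 19 genes higher and 1 lower, with sums of 5425 RPM in stage C, against 1878 RPM in stage B, 2.89-fold (2.85 to 2.93) higher. The median of the members was 0.84, short of 2-fold, and the log2 difference of the sums was 1.33 without chromosome 1. Peroxisomal hydroxypyruvate reductase, a locus of chromosome 1, stood at 1345 RPM in stage C, against 350.3 RPM in stage B, 3.84-fold (3.73 to 3.95) higher. The T protein of glycine cleavage stood at 547 RPM in stage C, against 122 RPM in stage B, 4.50-fold (4.28 to 4.73) higher. Alanine:glyoxylate aminotransferase of chromosome 2 stood at 362 and 32.3 RPM in stages C and B, against 20.4 and 102 RPM for its isoform of chromosome 4.

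Chlorophyll synthesis stood short of 2-fold by a margin that other settings closed. Its 15 genes summed to 6078 RPM in stage C, against 3328 RPM in stage B, with 5 higher and 2 lower (5 and 1 after scaling). The log2 difference was 0.87, against 1.16 after scaling, 1.11 without chromosome 5 and 0.54 without chromosome 1. Protochlorophyllide oxidoreductase C, the light-driven step, stood at 1420.1 RPM in stage C, against 254 RPM in stage B, 5.58-fold (5.40 to 5.77) higher. It is a locus of chromosome 1, where higher calls were most frequent. ChlH, the large subunit of magnesium chelatase and a locus of chromosome 5, stood at 1136 RPM in stage C, against 365 RPM in stage B, 3.11-fold (3.02 to 3.20) higher.

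**Figure D4:**
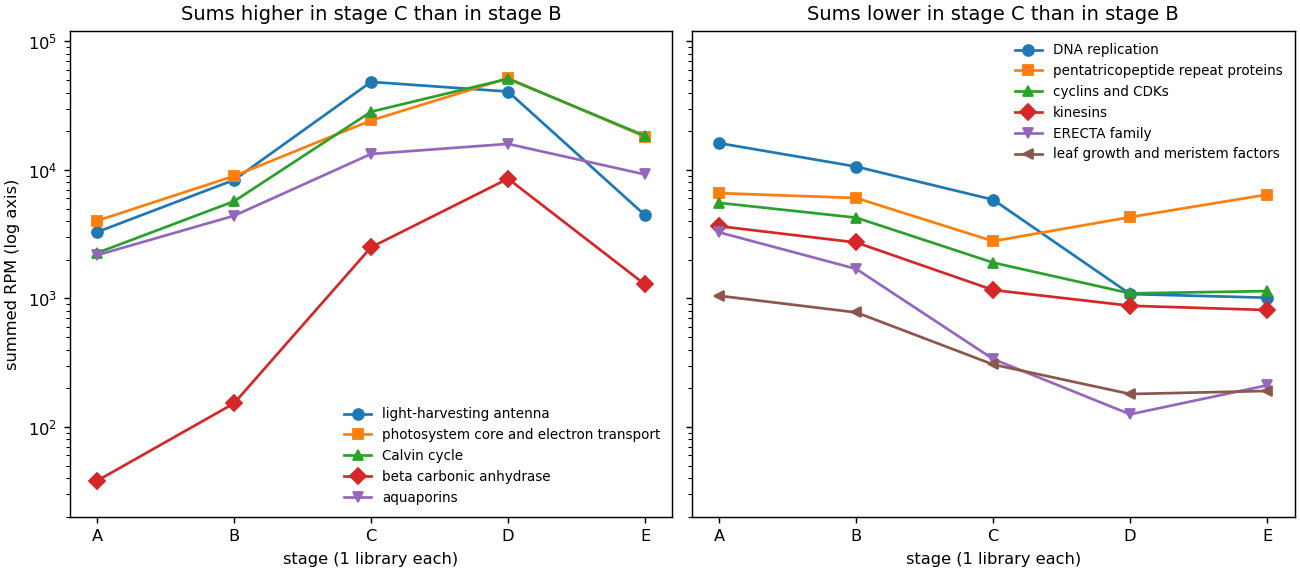
Summed RPM of gene lists and protein groups in the 5 stages (1 library each) on a log axis: left, sums higher in stage C than in stage B; right, sums lower. Beta carbonic anhydrase stands at 2500.1 RPM in stage C and 153 RPM in stage B, and the ERECTA family at 337 and 1697 RPM in the same stages.

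Many genes of the dividing cell were lower in stage C. The 49 DNA replication genes summed to 5864 RPM in stage C, against 10614 RPM in stage B, 1.81-fold (1.80 to 1.83) lower and short of 2-fold, with 0 higher and 24 lower (1 and 17 after scaling). The MCM2 to MCM7 proteins, which form the helicase that opens DNA for copying, summed to 1345 RPM in stage C, against 2919 RPM in stage B, 2.17-fold (2.13 to 2.21) lower, and short of 2-fold after scaling. ORC1, which marks the sites where copying starts, stood at 7.42 RPM in stage C, against 68.3 RPM in stage B, 9.21-fold (7.54 to 11.3) lower. Topoisomerase II, which untangles copied chromosomes, stood at 362 RPM in stage C, against 883 RPM in stage B, 2.44-fold (2.36 to 2.52) lower, a call that scaling ended by a small margin. PCNA, the clamp of the copying polymerase, summed to 670.2 RPM in stage C, against 876 RPM in stage B over its 2 genes, short of 2-fold, whereas the gene outside chromosome 1 alone had a log2 difference of -1.43. The MCM genes stood at 4267 RPM at stage A, 222 at D and 20.2 at E.

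Mitotic regulators were lower too. The 67 cyclins and cyclin-dependent kinases summed to 1898 RPM in stage C, against 4252 RPM in stage B, 2.24-fold (2.21 to 2.27) lower, with 6 higher and 26 lower (9 and 22 after scaling), and the sum was short of 2-fold after scaling, at a log2 difference of -0.88. The D-type cyclins CYCLIN D3;1 and CYCLIN D3;2, which keep leaf cells dividing, stood at 9.10 and 271 RPM and 12.7 and 166 RPM in stages C and B, 29.7-fold and 13.1-fold lower. CYCLIN D1;1, on chromosome 1, went the other way, at 41.3 RPM in stage C, against 9.36 RPM in stage B. The B1 cyclins, which take cells into mitosis, summed to 117 RPM in stage C, against 363 RPM in stage B, 3.10-fold (2.93 to 3.27) lower, with 0 higher. The plant-specific CDKB kinases of mitosis summed to 312 RPM in stage C, against 459 RPM in stage B and were not called.

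Kinesins, motors of the spindle and of the phragmoplast that builds the new wall, summed to 1163 RPM in stage C, against 2725 RPM in stage B over 21 genes, 2.34-fold (2.30 to 2.39) lower, with 0 higher and 13 lower (2 and 10 after scaling). After scaling the log2 difference was -0.94, short of 2-fold. Kinesin 3 stood at 12.8 RPM in stage C, against 163 RPM in stage B, 12.7-fold (10.96 to 14.9) lower, and a phragmoplast-associated kinesin at 17.6 RPM in stage C, against 99.8 RPM in stage B, 5.68-fold (4.97 to 6.52) lower. MYB3R4, a MYB factor that switches on mitotic genes in Arabidopsis, stood at 4.76 RPM in stage C, against 45.1 RPM in stage B, 9.47-fold (7.38 to 12.3) lower.

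Core histones did not follow the replication genes as a sum. Their 46 genes summed to 30519 RPM in stage C, against 22366 RPM in stage B, with 21 higher and 9 lower, short of 2-fold. Their log2 difference turned to -0.47 without chromosome 1, and without chromosome 5 it was 1.09, past 2-fold higher. By protein the sums in stages C and B were 4078 and 3662 RPM for H3, 10473 and 5713 RPM for H4, 12176 and 7774 RPM for H2B and 4959 and 6031 RPM for H2A, none of them called (H4 higher after scaling). The log2 difference of H2A was -1.67 without chromosome 1 and 1.41 without chromosome 5, past 2-fold in opposite directions. Without chromosome 5 those of H4 and H2B were 1.14 and 1.04, and without chromosome 1 0.02 and -0.01. Within H2A, the locus on chromosome 5 with most reads in stage B stood at 237 RPM in stage C, against 3788 RPM in stage B, whereas a locus of chromosome 1 stood at 2018 RPM in stage C, against 51.2 RPM in stage B. The histones summed to 17046 RPM at stage A, 1701 at D and 798 at E.

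**Figure D5:**
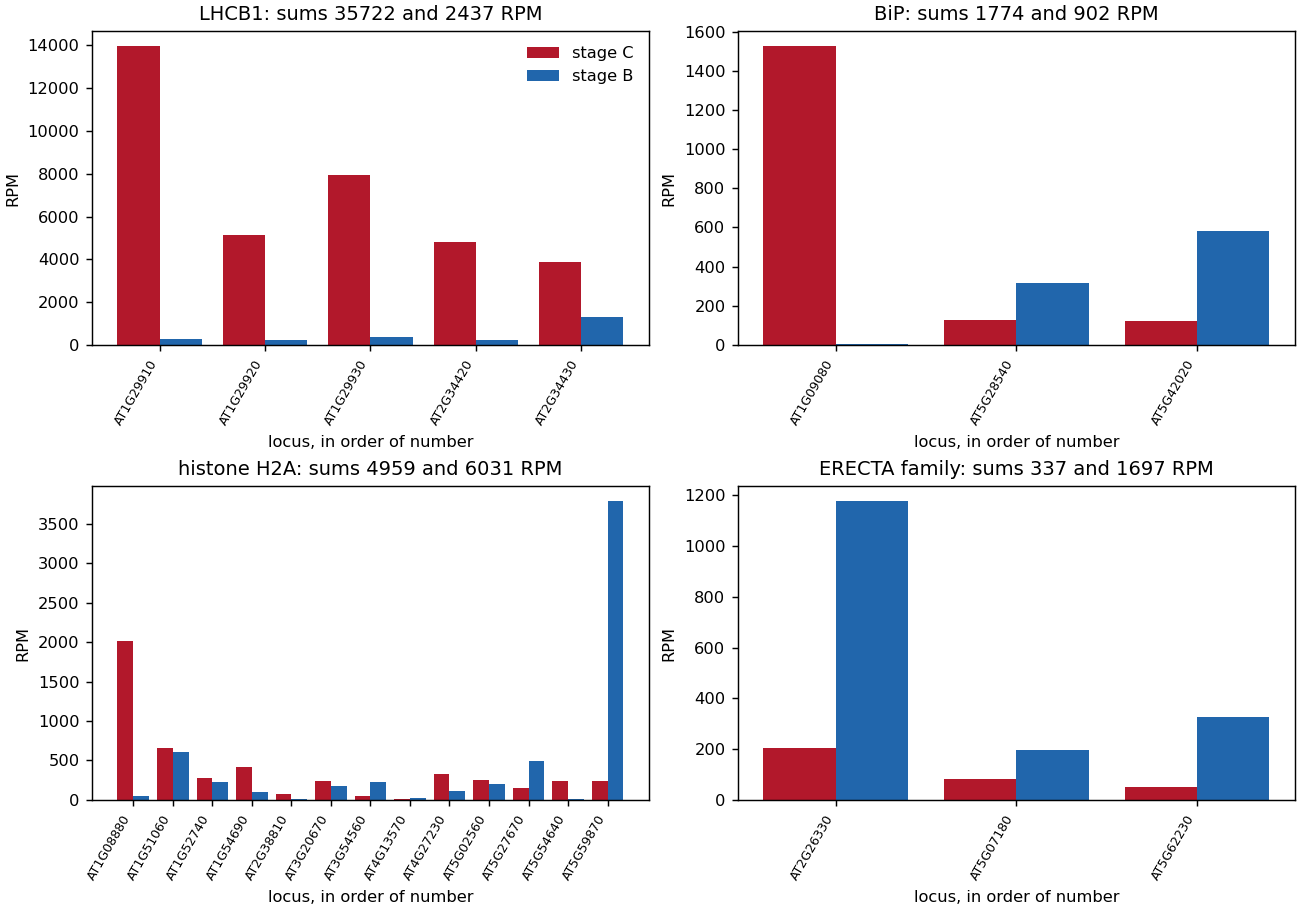
RPM of each member in stage C (red) and stage B (blue), in order of Arabidopsis locus number, for LHCB1, BiP (the chaperone of the endoplasmic reticulum), histone H2A and the ERECTA family. In BiP and H2A the reads lie at low-numbered loci in stage C and at high-numbered loci in stage B, whereas all LHCB1 members are higher and all ERECTA members lower in stage C.

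Actin was higher, and tubulin stood short of 2-fold. Alpha tubulins summed to 4006 RPM in stage C, against 2415 RPM in stage B and beta tubulins to 5766 RPM in stage C, against 3142 RPM in stage B, both short of 2-fold and both past it after scaling. All 15 tubulins had a log2 difference of 0.94, against 1.23 after scaling, 1.42 without chromosome 5 and 0.12 without chromosome 1. Actin, which guides vesicles to growing walls, summed to 1537 RPM in stage C, against 523 RPM in stage B, 2.94-fold (2.87 to 3.01) higher, with 9 of 11 genes higher and 0 lower. ACT8 on chromosome 1 stood at 609.6 and 64.7 RPM and ACT7 on chromosome 5 at 104 and 198 RPM in stages C and B.

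Factors of leaf growth and of the young leaf primordium were lower. The 24 members summed to 306 RPM in stage C, against 778 RPM in stage B, 2.54-fold (2.46 to 2.63) lower, with 0 higher and 13 lower. ANT, an AP2-type factor that keeps organ cells dividing, stood at 8.54 RPM in stage C, against 169 RPM in stage B, 19.8-fold (16.5 to 23.9) lower. GRF5, a growth-regulating factor of leaf size, stood at 7.28 RPM in stage C, against 67.6 RPM in stage B, 9.29-fold (7.60 to 11.5) lower. A YABBY factor of leaf outgrowth on chromosome 2 stood at 20.6 RPM in stage C, against 161 RPM in stage B, 7.78-fold (6.89 to 8.80) lower. The member with most reads, the YABBY locus AT1G08465 of chromosome 1, went the other way. Without it the list summed to 164 RPM in stage C, against 686 RPM in stage B. That is a log2 difference of -2.06, beside -1.34 with it. The 5 CYP78A cytochromes, whose Arabidopsis members set organ size, summed to 41.2 RPM in stage C, against 316 RPM in stage B, 7.67-fold (7.04 to 8.37) lower, with 1 higher and 3 lower. AS1, which separates the leaf from the meristem, was level at 45.6 and 42.4 RPM.

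Ribosomal proteins stood short of 2-fold as a sum while their members divided. The 303 genes summed to 55448 RPM in stage C, against 66046 RPM in stage B, with 67 higher and 107 lower (89 and 93 after scaling). The shares before scaling were 22.1% and 35.3%, beside 15.2% and 22.8% of all genes. L11 shows the division: a locus of chromosome 2 stood at 479 and 7.01 RPM in stages C and B and a locus of chromosome 3 at 57.8 and 487 RPM, while the 4 genes summed to 675 and 907 RPM. L23A, which lies at the exit of the ribosome, summed to 597 RPM in stage C, against 1871 RPM in stage B, 3.13-fold (3.06 to 3.21) lower, and was divided as well: its locus of chromosome 2 was level at 495 and 503 RPM in stages C and B, and its locus of chromosome 3 stood at 102 and 1368 RPM. Translation factors summed to 11742 RPM in stage C, against 14268 RPM in stage B, with 15 higher and 29 lower (19 and 18 after scaling) of 78, or 19.2% and 37.2% before scaling. EF1 alpha, which brings charged tRNA to the ribosome, summed to 4167 RPM in stage C, against 1373 RPM in stage B, 3.03-fold (2.99 to 3.08) higher, but without its 3 loci of chromosome 1 it was level at 446 and 388 RPM.

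The pentatricopeptide repeat proteins, which bind, edit and process RNA in chloroplasts and mitochondria, were lower or not called, with a single exception. Of 239 genes 137 (57.3%) were lower, beside 22.8% of all genes, 1 was higher (6 after scaling) and 101 did not pass the rule, with a median of -1.46. The sums were 2789 RPM in stage C, against 6046 RPM in stage B, 2.17-fold (2.14 to 2.19) lower. Of the 78 members on chromosome 1, 0 were higher, beside 26.2% of all genes on that chromosome. After scaling 124 were lower and the sums differed by -0.83 on the log2 scale, short of 2-fold. The list stood at 6596 RPM at stage A, 4294 at D and 6428 at E, so that stage C was its lowest stage. The member AT4G34830, among the 3 with most reads, stood at 168 and 133 RPM and was not called.

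Proteins that carry water were higher. The 34 aquaporins summed to 13308 RPM in stage C, against 4397 RPM in stage B, 3.03-fold (3.001 to 3.05) higher, with 18 higher and 3 lower. PIP2 proteins, the main water channels of the plasma membrane, summed to 4554 RPM in stage C, against 1065 RPM in stage B, 4.28-fold (4.20 to 4.35) higher, with 7 of 8 members called. None of the PIP2 genes lies on chromosome 1. PIP2E stood at 367 and 24.9 RPM in stages C and B, PIP2;5 at 472 and 38.8 RPM and PIP2;4 at 531 and 62.9 RPM. PIP1 proteins, which need PIP2 partners to reach the membrane, summed to 8334 RPM in stage C, against 3135 RPM in stage B, 2.66-fold (2.63 to 2.69) higher, of which PIP1C on chromosome 1 gave 4556 and 477 RPM, and without it the log2 difference was 0.51, short of 2-fold. The vacuolar TIP1 channels summed to 230.0 RPM in stage C, against 146 RPM in stage B, short of 2-fold, while all 3 members were called, 2 higher and 1 lower.

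Ion transport genes were called in shares near those of all genes, 15.2% higher and 22.8% lower. Sodium and proton exchangers summed to 669.7 RPM in stage C, against 759 RPM in stage B over 13 genes, with 2 higher and 3 lower (4 and 3 after scaling), or 15.4% and 23.1%. NHX1, which loads sodium into the vacuole, stood at 25.8 RPM in stage C, against 95.9 RPM in stage B, 3.71-fold (3.31 to 4.17) lower. It is a locus of chromosome 5, where lower calls were most frequent. Without that chromosome the exchangers summed to 541 RPM in stage C, against 533 RPM in stage B. SOS1, which exports sodium from the cell, stood at 91.8 RPM in stage C, against 153 RPM in stage B and was not called. Of 40 potassium and chloride channels and carriers 8 were higher and 10 lower, or 20% and 25% (8 and 6 after scaling), and the sums were level at 1646 and 1695 RPM. These transporters are of interest in a salt gland, whose fluid is rich in sodium and chloride.

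The proton pumps of the plasma membrane, which power such transport, summed to 2675 RPM in stage C, against 1294 RPM in stage B, 2.07-fold (2.03 to 2.10) higher. Of 11 pumps 7 were higher and 1 lower, but without chromosome 1 the log2 difference was 0.35, and without AHA10 alone it was 0.64. AHA10 stood at 896 and 152 RPM in stages C and B, and AHA11 on chromosome 5 at 109 and 297 RPM. The vacuolar pumps summed to 2496 RPM in stage C, against 2132 RPM in stage B, with 1 higher and 2 lower (3 and 2 after scaling) of 18.

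Many wall enzymes were called higher, but the sums of their lists stood short of 2-fold, by margins that scaling closed for expansins and cellulose synthases. Of all genes 15.2% were higher and 22.8% lower. Of 31 xyloglucan endotransglucosylases, which cut and rejoin wall xyloglucan, 20 were higher and 2 lower (64.5% and 6.45%), with a median of 2.79, yet the sums were level at 6220.3 and 5829 RPM in stages C and B. The member with most reads, on chromosome 2, stood at 1679.6 and 2389 RPM, and the one with the next most in stage B, on chromosome 5, at 351 and 1674 RPM. Of 30 expansins, which loosen walls, 12 were higher and 3 lower (40% and 10%), with sums of 802 and 453 RPM and a log2 difference of 0.82, against 1.11 after scaling and 0.09 without chromosome 1. The 111 pectin-modifying enzymes summed to 1339 RPM in stage C, against 1078 RPM in stage B, with 29 higher and 13 lower (35 and 9 after scaling) and a log2 difference of 0.05 without chromosome 1. The shares before scaling were 26.1% and 11.7%. Of the 29 higher genes 13 are loci of chromosome 1, and 33 of the 111 lay under 5 RPM in both stages. Within pectin modification, the family described as pectate lyase, chosen for its large fold, had all 6 genes higher, and its sum was 78.7 RPM in stage C, against 10.6 RPM in stage B, 7.41-fold (6.31 to 8.73) higher. Cellulose synthases had 16 higher and 2 lower of 32 (50% and 6.25%), with sums of 3702 RPM in stage C, against 1938 RPM in stage B and a log2 difference of 0.93, against 1.22 after scaling and 1.67 without chromosome 5.

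Cuticle genes were divided within the pathway. The 35 genes summed to 3938 RPM in stage C, against 3760.2 RPM in stage B, with 11 higher and 5 lower (14 and 3 after scaling). CER1, which makes the alkanes of leaf wax, stood at 50.7 RPM in stage C, against 168 RPM in stage B, 3.31-fold (3.05 to 3.60) lower. CER6, which elongates wax precursors, stood at 97.4 RPM in stage C, against 313 RPM in stage B, 3.22-fold (3.03 to 3.42) lower, and CER5, which exports wax, at 28.1 RPM in stage C, against 86.4 RPM in stage B, 3.08-fold (2.75 to 3.45) lower. All 3 are loci of chromosome 1, where lower calls were rarer. KCS1, another elongase of chromosome 1, stood at 208 RPM in stage C, against 3.32 RPM in stage B. Lipid transfer proteins summed to 926 RPM in stage C, against 272 RPM in stage B, 3.41-fold (3.29 to 3.52) higher, but this rested on 1 member at 677 and 92.9 RPM, and without it the sums were 249 and 179 RPM. Without all loci of chromosome 1 the log2 difference was 0.37.

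Chaperones and catalases divided by locus. BiP, the chaperone of the endoplasmic reticulum, summed to 1774 RPM in stage C, against 902 RPM in stage B, 1.97-fold higher and short of the rule (past it after scaling), with 1526 and 5.92 RPM at its locus of chromosome 1 and 121 and 581 RPM at a locus of chromosome 5. The log2 difference of BiP was -1.85 without the locus of chromosome 1 and 7.79 without those of chromosome 5. Cytosolic HSP70 summed to 2916 RPM in stage C, against 883 RPM in stage B, 3.30-fold (3.24 to 3.36) higher, but without its 2 loci of chromosome 1 it stood at 1158 and 802 RPM, short of 2-fold. Cytosolic HSP90 was level at 2178 and 1976 RPM. The 89 heat shock proteins had 15 higher and 16 lower (20 and 14 after scaling), shares of 16.9% and 18.0% that lie near those of all genes, with sums of 22744 and 17267 RPM. Among the catalases, which break down the peroxide of photorespiration, catalase 3 on chromosome 1 stood at 2787 and 716 RPM and catalase 2 on chromosome 4 at 348 and 1483 RPM.

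Ran, the small GTPase of nuclear transport, was lower as a sum although members went both ways. The sum was 1267 RPM in stage C, against 2616 RPM in stage B, 2.06-fold (2.03 to 2.10) lower, with 2 genes higher and 2 lower, and short of 2-fold after scaling. RAN1 stood at 838 and 137 RPM in stages C and B, RAN2 at 164 and 1178 RPM and RAN3 at 256 and 1301 RPM. All 3 lie on chromosome 5, and RAN1 has the lowest number of them.

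Hormone and stress lists stood short of 2-fold as sums, and their calls are given beside the 15.2% higher and 22.8% lower of all genes. Auxin response genes summed to 4103 RPM in stage C, against 4122 RPM in stage B, with 31 higher and 23 lower (38 and 16 after scaling) of 143 (21.7% and 16.1%). Genes of abscisic acid and dehydration summed to 2396 RPM in stage C, against 3673 RPM in stage B, with 8 higher and 19 lower of 69, or 11.6% and 27.5%, and jasmonate genes to 164 RPM in stage C, against 217 RPM in stage B, with 2 higher and 5 lower (4 and 4 after scaling) of 20, or 10% and 25%. A dehydrin of chromosome 1, a protein of drying cells, stood at 173 RPM in stage C, against 589.8 RPM in stage B, 3.41-fold (3.27 to 3.57) lower. Flavonoid and phenylpropanoid genes summed to 5591 RPM in stage C, against 8454 RPM in stage B, with 5 higher and 8 lower of 30, but without chromosome 5 the sums were level at 2881 and 2906 RPM. Dihydroflavonol reductase of chromosome 5, a step toward anthocyanin, stood at 617 RPM in stage C, against 1608 RPM in stage B, 2.61-fold (2.54 to 2.67) lower. MYB factors had 58 higher and 17 lower of 134, but their sums without chromosome 1 differed by 0.01 on the log2 scale.

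Sugar transporters had 15 higher and 0 lower of 31, with sums of 572 RPM in stage C, against 346 RPM in stage B, short of 2-fold and just past it after scaling, at a log2 difference of 1.01. SUC2, which loads sucrose into the phloem in Arabidopsis, stood at 55.2 RPM in stage C, against 13.6 RPM in stage B, 4.06-fold (3.50 to 4.73) higher. The 4 xylem markers, 3 of them cellulose synthases of secondary walls, summed to 460.0 RPM in stage C, against 172 RPM in stage B, with 3 higher and 0 lower. The 2 phloem markers, SUC2 and APL, summed to 58.4 RPM in stage C, against 15.04 RPM in stage B, with 1 higher (SUC2). Both are loci of chromosome 1, where 26.2% of all genes were higher. The 2 meristem markers summed to 0.280 RPM in stage C, against 1.39 RPM in stage B. None of these 8 markers was at 0 in either stage. Their part in the differences above was not tested.

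Among families of 2 or more genes with the largest folds, several belong to themes given above. The HMG-box proteins, which bind and bend chromosomal DNA, summed to 158 RPM in stage C, against 872 RPM in stage B, 5.52-fold (5.28 to 5.77) lower, with 2 of 2 genes lower. The hyaluronan / mRNA binding family stood at 68.2 RPM in stage C, against 1125 RPM in stage B, 16.5-fold (15.5 to 17.6) lower, with 3 of 3 genes lower. The alpha subunit of the nascent polypeptide-associated complex, which meets new proteins at the ribosome, stood at 33.0 RPM in stage C, against 237 RPM in stage B, 7.18-fold (6.53 to 7.92) lower, with 2 of 2 genes lower.

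On the higher side, glutamate decarboxylase, which makes GABA, summed to 213 RPM in stage C, against 31.5 RPM in stage B, 6.77-fold (6.17 to 7.44) higher, with 4 of 5 genes higher. Mitochondrial aldehyde dehydrogenase 2B stood at 618 RPM in stage C, against 117 RPM in stage B, 5.27-fold (5.02 to 5.54) higher, with 2 of 2 genes higher. The family described as root hair specific stood at 189.6 RPM in stage C, against 28.7 RPM in stage B, 6.60-fold (5.98 to 7.29) higher, with 5 of 9 genes higher and 0 lower. The crinkly4-related receptor kinases, whose founding member in maize shapes the leaf epidermis, summed to 29.96 RPM in stage C, against 4.71 RPM in stage B, 6.36-fold (4.99 to 8.20) higher, with 4 of 4 genes higher.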

How the data were processed

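Poly(A) RNA of 5 leaf stages was analysed from 1 deposited table with 1 value column per stage, and stages C and B were compared. Per the file headers the values are RPKM, but the deposited values are RPM: 100% of them were whole multiples of 1 step per stage within 0.001 reads, which also gave the reads of each library. The sources used here name no aligner, assembly or strand setting and do not say how reads shared by several genes were counted, and 41 genes at 5 RPM or more carry the same 5 values as another gene. Genes are those of the table, named by the Arabidopsis description paired with them in it, and symbols were added by hand from general knowledge.

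With 1 library per stage no test across samples was made. Genes, families (genes with the same description once closing numbers are removed), 53 lists and 66 groups of related proteins were compared by a rule of size: a pseudocount of 1 RPM, a log2 difference of 1 and a minimum of 5 RPM. For a sum, 2-fold means a log2 difference of 1 on the same scale. Intervals are exact Clopper-Pearson intervals from scipy 1.17.1. The calculation ran in Python 3.11.15 with numpy 2.4.6 and pandas 2.3.3, was tested on simulated counts, and the plots were drawn with matplotlib 3.10.9. Lists were gathered by Arabidopsis locus and by words in the descriptions. Members, lists and protein groups were chosen with earlier results of these data known, and the protein groups after their values had been seen.

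Genes were named by rule: all members of the stomatal, guard cell and trichome lists, the 3 members of each other list that differed most in each direction and the 3 with most reads, the 20 families that differed most in each direction, and the 15 genes that differed most in each direction with a family sum called the same way. Members of protein groups and families of 2 or more genes named outside this rule were chosen after their values were seen. Alternatives were other pseudocounts, minimums and folds, median-of-ratios scaling, centring within each chromosome, the counting interval, other definitions of a family and sums without some members.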

Additional observations from a re-analysis of the deposited data

How the results depend on the processing

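Counts of genes depended on the thresholds. With a minimum of 20 RPM 1719 genes were higher in stage C, and with a 4-fold rule 1297 were higher and 1362 lower. Summed word for word by description, 1432 families were higher and 2025 lower. With a 4-fold rule 222 families were higher and 334 lower, and among families of 2 or more genes, a setting added after the values were seen, 209 were higher and 366 lower. The balance of higher and lower depended on the scaling. Median-of-ratios scaling gave 3594 genes higher and 3177 lower, and 888 families higher and 846 lower. Centring within each chromosome gave 3192 genes higher and 3143 lower, and a counting interval wholly beyond 2-fold gave 2476 and 3519. Pseudocounts of 0.1 and 5 gave 2905 and 2252 genes higher and 4380 and 3249 lower, and no minimum gave 3435 and 4689.

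Of the 8 list sums at 2-fold or more on the higher side, 8 kept that size after scaling and without chromosome 5, and 6 without chromosome 1. Those that did not were lipid transfer proteins and plasma membrane proton pumps, which were also the ones that lost it without the member with most reads, where 6 kept it. By the median of members 5 of the 8 reached that size, and photorespiration, lipid transfer proteins and carbonic anhydrases did not. Of the 6 on the lower side, 3 kept it after scaling, 6 without chromosome 1, 6 without the member with most reads and 5 without chromosome 5. By the median 4 of the 6 reached it, and stomatal signalling and the cyclins and CDKs did not. No list sum past 2-fold turned its direction under these settings. No paired analysis was possible because each stage is 1 library, and for the same reason leaving out a replicate was not run. Depth limits genes near 3 reads, and the spread between leaves is unknown.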

Other observations

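Vesicle trafficking and cytochrome P450 genes were called in shares near the 15.2% higher and 22.8% lower of all genes. Vesicle trafficking genes, which carry cargo to walls and vacuoles, summed to 14117 RPM in stage C, against 15221 RPM in stage B, with 29 higher and 44 lower (40 and 29 after scaling) of 184, or 15.8% and 23.9% before scaling. Cytochromes P450 summed to 3045 RPM in stage C, against 3947 RPM in stage B, with 29 higher and 46 lower (40 and 38 after scaling) of 211, or 13.7% and 21.8% before scaling. Proteasome genes summed to 5694 RPM in stage C, against 7919 RPM in stage B, with 7 higher and 17 lower of 53, or 13.2% and 32.1%, and 7 and 11 after scaling. Leucine-rich repeat kinases, which include the ERECTA family, had 53 higher and 53 lower of 174 and summed to 3431 RPM in stage C, against 5790.1 RPM in stage B. Their shares of 30.5% and 30.5% both lie above those of all genes, and without chromosome 1 their log2 difference was -1.25.

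Glutathione transferases summed to 2770.5 RPM in stage C, against 1975 RPM in stage B, with 17 higher and 12 lower of 54, and their log2 difference was -0.22 without chromosome 1. Their shares were 31.5% and 22.2%, beside 15.2% and 22.8% of all genes. Starch and sucrose enzymes summed to 3723 RPM in stage C, against 3551 RPM in stage B, with 14 higher and 10 lower (16 and 5 after scaling) of 54, or 25.9% and 18.5% before scaling. The 10 clock genes were level as a sum, at 229.5 RPM in stage C, against 237 RPM in stage B, with 2 higher and 3 lower, or 20% and 30%. LHY, a locus of chromosome 1 that peaks near dawn in Arabidopsis, was higher at 77.1 RPM in stage C, against 27.3 RPM in stage B. TOC1, a locus of chromosome 5 that peaks near dusk, was lower at 2.10 RPM in stage C, against 8.64 RPM in stage B. These are the directions in which loci of those chromosomes lie over all genes, and the labels used here give no hour of harvest.

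WRKY factors, many of which act in defence, summed to 264 RPM in stage C, against 311 RPM in stage B, with 5 higher and 9 lower (6 and 6 after scaling) of 52. Those are shares of 9.62% and 17.3%, beside 15.2% and 22.8% of all genes. Of the 52, 32 lay under 5 RPM in both stages and could not be called. NAC factors summed to 281 RPM in stage C, against 231 RPM in stage B, with 13 higher and 7 lower (17 and 5 after scaling) of 55, or 23.6% and 12.7% before scaling. Of the 55, 29 lay under 5 RPM in both stages. Ethylene-response factors summed to 206 RPM in stage C, against 297 RPM in stage B, with 6 higher and 4 lower of 65, or 9.23% and 6.15%. Of the 65, 51 lay under 5 RPM in both stages and could not be called. The log2 difference of the list was -1.73 without chromosome 1. ANT is its member with most reads. Without ANT the sums turned direction, at 197 and 128 RPM in stages C and B, a log2 difference of 0.63.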
